A study of Mus musculus with 15 samples.

Results

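The genes for the proteins of the cytosolic ribosome were examined for 2 histone marks and a histone variant in cultured mouse macrophages grown from bone marrow (BMDMs). A gene was taken as a member when it was protein-coding in the GENCODE M21 annotation and its symbol began with Rpl or Rps and a digit, or was Rpsa, Rplp0, Rplp1 or Rplp2. Symbols that began with Rps6k, which name the S6 kinases, and pseudogene symbols were dropped. The rule found 86 of 21938 protein-coding genes, on 19 chromosomes. Of these, 47 encode proteins of the large subunit and 31 proteins of the small subunit, 7 are paralogs or copies (Rpl22l1, Rps27l, Rps27rt, Rpl10l, Rpl39l, Rpl3l and Rpl7l1), and Rps19bp1 encodes a binding partner of RPS19 and no part of the ribosome. Fau and Rack1, whose products also contain or are ribosomal proteins, fall outside the symbol rule and are given separately.

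CUT&RUN, in which an antibody tethers a nuclease to its target and the DNA fragments cut free are sequenced, was done on BMDMs from mice 8 to 10 weeks old, grown for 6 to 8 days in L929-conditioned medium. H3.3-HA cells carry an HA tag on the histone variant H3.3 at the H3f3b gene. WT cells are H3f3a fl/fl H3f3b fl/fl without Cre, and H3.3cKO (cKO) cells carry the same floxed alleles with LysM cre/cre, in which Cre is made from the myeloid gene Lyz2. The floxed alleles are thus shared by WT and cKO, and the study describes the deletion of H3f3b in this line as variable. Region lists were available for 2 H3.3-HA libraries and, in each genotype, for 2 libraries of H3K27ac and 2 of H3K36me3, which made 10 of the 15 samples in the series, and the other 5 were IgG controls. The libraries held 5365319 to 29988098 tags. H3.3-HA was profiled only in tagged cells with intact H3.3, so it has no cKO counterpart.

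H3.3 is the H3 variant that is placed into chromatin outside of DNA replication, at active genes and at regulatory elements. H3K27ac marks active promoters and enhancers, and H3K36me3 is laid down behind elongating RNA polymerase II along the bodies of transcribed genes. Ribosomal protein genes are short, intron-containing and transcribed at very high rates in nearly every cell, and their mRNAs begin with a run of pyrimidines, the TOP motif, through which growth signals control their translation. Many of their introns also hold small nucleolar RNAs (snoRNAs), which guide the chemical modification of ribosomal RNA.

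The members were compact. The window of each gene, its body plus 1 kb upstream, had a median length of 4328 bp (1374 to 32449 bp), against 18425 bp over all protein-coding genes, and the median member had 5 exons. Windows of 10000 bp and more, found at Rps14, Rpl11, Rpl3, Rps15a and Rps24, come from long gene records in the annotation. In all, 30 members held 58 snoRNA genes. In 27 windows another protein-coding gene overlapped, and 59 windows held the member alone.

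The start sites are shown first, since the H3K27ac difference described further on lay there. At the annotated start, 11 of 86 members (12.8%) had a C followed by further pyrimidines to a run of at least 5, the arrangement of a TOP motif, against 2.27% of 21937 protein-coding genes. At the RefSeq start nearest to it, which could be matched for 66 members, 13 (19.7%) had it, against 2.18% of 16538 genes. Annotated starts can lie some bases from the site that cells use, so these counts describe the annotation. The next 8 sequences give 15 bases before the start and 15 from it on, with the pyrimidine run that holds the start base in capitals. The first 6 carry such a run, and Rps3 and Rpl21, which are among the members with the widest H3K27ac difference, have a purine at the annotated start.
Rpl32: gcgccgccgccgCCTCTTCCTTCTTCCTCg
Rps2: ccgcggcgCCTCCCTCTTCTTCTTCTTCgg
Rpl30: ttgtgggagCTCCTTCCTTTCTCgctcccc
Rpl4: agtgacaagTCTTTCCTTTTCCTgtgggag
Rpl37: tggcgggggtgCTTTCTCTTCCggtctctt
Rpl37a: gcattgcgTCCCTTCCTCTTCggacttggg
Rps3: cccatgcaaaacttcatttcccatgaacac
Rpl21: acgacgcaaggtaacgtcagcacgctacgg
In GRCm38 (mm10) they lie at chr6:115808733-115808762 (minus strand, Rpl32), chr17:24720095-24720124 (plus, Rps2), chr15:34443208-34443237 (minus, Rpl30), chr9:64173360-64173389 (plus, Rpl4), chr15:5116630-5116659 (plus, Rpl37), chr1:72711275-72711304 (plus, Rpl37a), chr7:99483724-99483753 (minus, Rps3) and chr5:146832875-146832904 (plus, Rpl21).

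Upstream of these starts, in RefSeq promoters of the same build running from 250 bases before to 50 after the start, the letters CCGGAAG, which ETS factors can bind, were found on either strand in 25 of 66 members (37.9%) and in 12.4% of 16538 genes. AANATGGC, the core of YY1 sites, was found in 12 members (18.2%) against 6.75%, GGGCGG, the GC box of Sp factors, in 40 (60.6%) against 48.6%, and TATAAA in 6 (9.09%) against 12.9%. Neighbouring matches of different motifs can share edge letters, no motif is contained in another, and a match is only a match of letters. Stretches of the 100 bases before the start of 4 members are shown as examples, with matches in capitals. Rpl13 is a member with wide H3K27ac in cKO, Rpl37 holds an ETS and an Sp match side by side, Rpl24 a YY1 match, and Rps7, covered less by H3K27ac in cKO, an ETS match on the other strand.
Rpl13: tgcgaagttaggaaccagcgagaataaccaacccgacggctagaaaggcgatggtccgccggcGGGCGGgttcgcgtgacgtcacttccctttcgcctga
Rpl37: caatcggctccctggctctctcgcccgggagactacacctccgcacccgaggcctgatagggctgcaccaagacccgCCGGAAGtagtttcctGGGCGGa
Rpl24: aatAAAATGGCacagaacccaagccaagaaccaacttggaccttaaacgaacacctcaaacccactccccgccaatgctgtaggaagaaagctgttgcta
Rps7: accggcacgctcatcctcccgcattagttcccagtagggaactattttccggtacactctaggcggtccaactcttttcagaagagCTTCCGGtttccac
They lie at chr8:123102250-123102349 (plus strand, Rpl13), chr15:5116513-5116612 (plus strand, Rpl37), chr16:55966175-55966274 (plus strand, Rpl24) and chr12:28635954-28636053 (minus strand, Rps7). Among members whose start was covered by H3K27ac in both cKO and neither WT libraries, 9 of 32 matched promoters held CCGGAAG, and among those covered in at least 1 WT library 7 of 19 did.

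The libraries differed in how much of the genome was called. H3K27ac regions covered 89.6 and 74.8 Mb in WT and 46.2 and 62.0 Mb in cKO, and H3K36me3 regions 164 and 170 Mb in WT and 90.7 and 163 Mb in cKO. The cKO H3K36me3 replicate 1 library stood apart, with 19.3% of its tags in regions against 46.5 to 50.2% in the other H3K36me3 libraries. Region lists hold positions and no heights, and the WT and cKO lists were called against different IgG controls, so a difference in control cannot be told apart from a difference in genotype. The lists did not show the deletion itself: the H3f3b window held H3K27ac regions over 2446 and 2461 bp in WT and 4351 and 5453 bp in cKO. Of 9 macrophage marker genes, 8 had H3K27ac regions in both libraries of each genotype, and Pax5, Cd3e and Ly6g had none in either. Of 4 B cell markers, 2 had a region in at least 1 library of each genotype. Their H3K27ac regions summed to 4.565 and 4.728 kb in WT and 2.644 and 6.27 kb in cKO. Summed over 4 neutrophil markers, H3K27ac regions covered 0 kb in both WT libraries and 0.516 and 1.01 kb in cKO, where 3 of the 4 had a region in at least 1 library, and over 4 T cell markers 0 kb in WT and 0.903 and 1.40 kb in cKO. The part of such cells in the results was not tested.

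H3.3-HA was found at most ribosomal protein genes, and it lay mostly at their 3' ends and beyond, with few start sites covered. A region touched the window in both replicates at 60 members, in 1 replicate at 17 and in neither at 9 (Rpl10l, Rpl22l1, Rpl36, Rpl36a, Rpl39l, Rpl3l, Rpl41, Rps27 and Rps27rt). The 69.8% with a region in both compares with 40.1% of all protein-coding genes and with 21.7% of the 4815 genes whose windows were 2563 to 8288 bp long, from the 10th to the 90th percentile of the members. Ribosomal protein genes are active genes, and the gap was narrower among genes with H3K36me3 in both WT libraries, where 59 of 76 members (77.6%), 70.1% of all 9987 genes and 52.8% of 1245 genes of the members' length had H3.3-HA in both replicates. No start site was covered in replicate 1, and 5 (5.81%) were in replicate 2, among them Rpl18, Rpl29, Rplp1 and Rpsa. Over all protein-coding genes 4.63 and 10.1% of start sites were covered.

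H3.3-HA was unevenly placed along the members. In replicates 1 and 2, H3.3-HA covered 4.53 and 21.4% of the 1 kb upstream of the members, beside 6.81 and 11.9% over all protein-coding genes. It covered 1.41 and 10.98% of the first 1 kb of the members and 30.3 and 51.3% of the rest of the transcript. Past the transcript end, 62.2 and 75.6% of the next 1 kb was covered. Among genes with H3K36me3 in both WT libraries, that last 1 kb was covered to 66.6 and 81.1% at the 76 members, to 16.2 and 20.8% over all such genes and to 23.9 and 34.7% over those of the members' length. In replicate 2 the covered share was highest 1500 bp past the transcript end, where 73 members (84.9%) lay in a region, and in replicate 1 it was highest at 500 bp, with 57 members (66.3%). The part of neighbouring genes in this downstream signal was not tested.

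**Figure D1:**
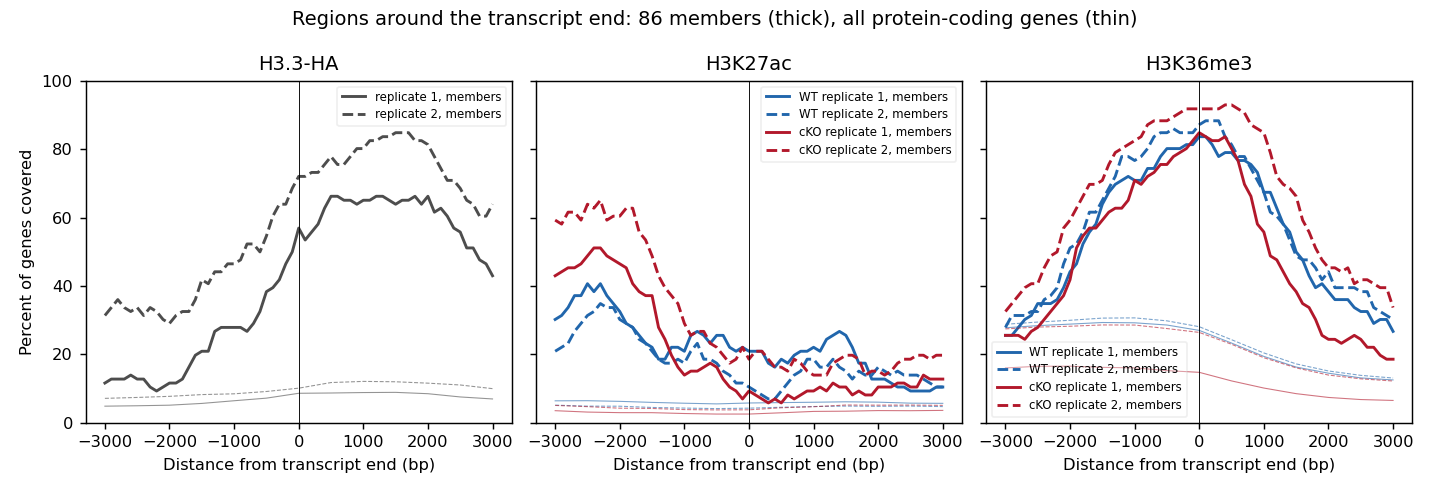
Percent of genes inside a region (y axis) against distance from the transcript end in bp (x axis), with 1 line per library, thick for the 86 members and thin for all protein-coding genes. The thick H3.3-HA lines climb across the end to 66.3 and 84.9%, while H3K27ac stays low there.

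The replicates differed in extent. Replicate 2 covered more of the window than replicate 1 at 66 members and less at 11, and the median share of the window covered was 12.1% in replicate 1 and 36.9% in replicate 2. The 3 members with the most H3.3-HA all have long records: Rps14, a protein of the small subunit, had 9211 and 15287 bp of its 32449 bp window, Rpl11 had 7977 and 12135 bp of 26164 bp, and Rps15a had 5741 and 9466 bp of 12817 bp. The Rps14 window also holds part of Ndst1. Per length, Rpsa, the laminin receptor precursor that is also a protein of the small subunit, had 2214 and 5132 bp of 5681 bp, while Rpl10 had 110 and 0 bp of 3324 bp. The Rpl10 window thus had next to none in either replicate. The windows leave out the bases past the gene end, so a window without H3.3-HA can have it there.

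The comparison of H3K27ac between WT and cKO asked whether losing H3.3 moved acetylation at these genes. H3K27ac regions covered more of the ribosomal protein genes in cKO than in WT. Over all genes together the deposited regions covered less in cKO, a direction that turned with the scaling and the window. Of 83 members with a region in at least 1 library, 43 (51.8%) were covered more in both cKO than in both WT libraries, 9 (10.8%) were covered less, and at 31 the genotypes overlapped. Over all 12310 protein-coding genes with a region, 18.1% were covered more and 38.5% less. With lists cut to equal covered length, 63.4% of the members tested were covered more and 8.54% less. All genes then leaned the same way, with 37.5% more and 17.3% less. That cut kept the widest regions, of at least 2100 and 1470 bp in WT and 501 and 1109 bp in cKO. More narrow regions were thus dropped from WT than from cKO, which by itself raises the share covered more in cKO. Within 1 kb on both sides of the start the shares were 63.4 and 3.66% of the members and 40.2 and 13% of all genes. Over 1721 genes of the members' length the shares were 35.9 and 14.7%, so short genes as a class leaned the same way, and the members' share lay above theirs. With 2 libraries against 2, the smallest p an exact two-sided permutation test can give for 1 gene is 0.333, and no single member could pass a threshold of 0.05.

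Summed over the members, H3K27ac regions covered 133 and 109 kb in WT and 149 and 214 kb in cKO. The same sum over all protein-coding genes was 77457 and 64018 kb in WT and 39299 and 52271 kb in cKO. The median member had 23.0 and 18.2% of its window covered in WT and 36.4 and 50.2% in cKO, and the median difference was 15.8 points. Both cKO medians lay above both WT medians, and the cKO libraries stood 13.8 points apart. Taking 1 WT and 1 cKO library at a time, the members covered more in cKO numbered 45 to 72 and those covered less 11 to 33, while over all genes tested 24.2 to 49.7% were covered more and 45.3 to 69.2% less. For WT replicate 2 against cKO replicate 2, all genes were covered more (49.7%) about as often as less (45.3%). Among the 59 members alone in their window, 31 were covered more and 6 less.

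**Figure D2:**
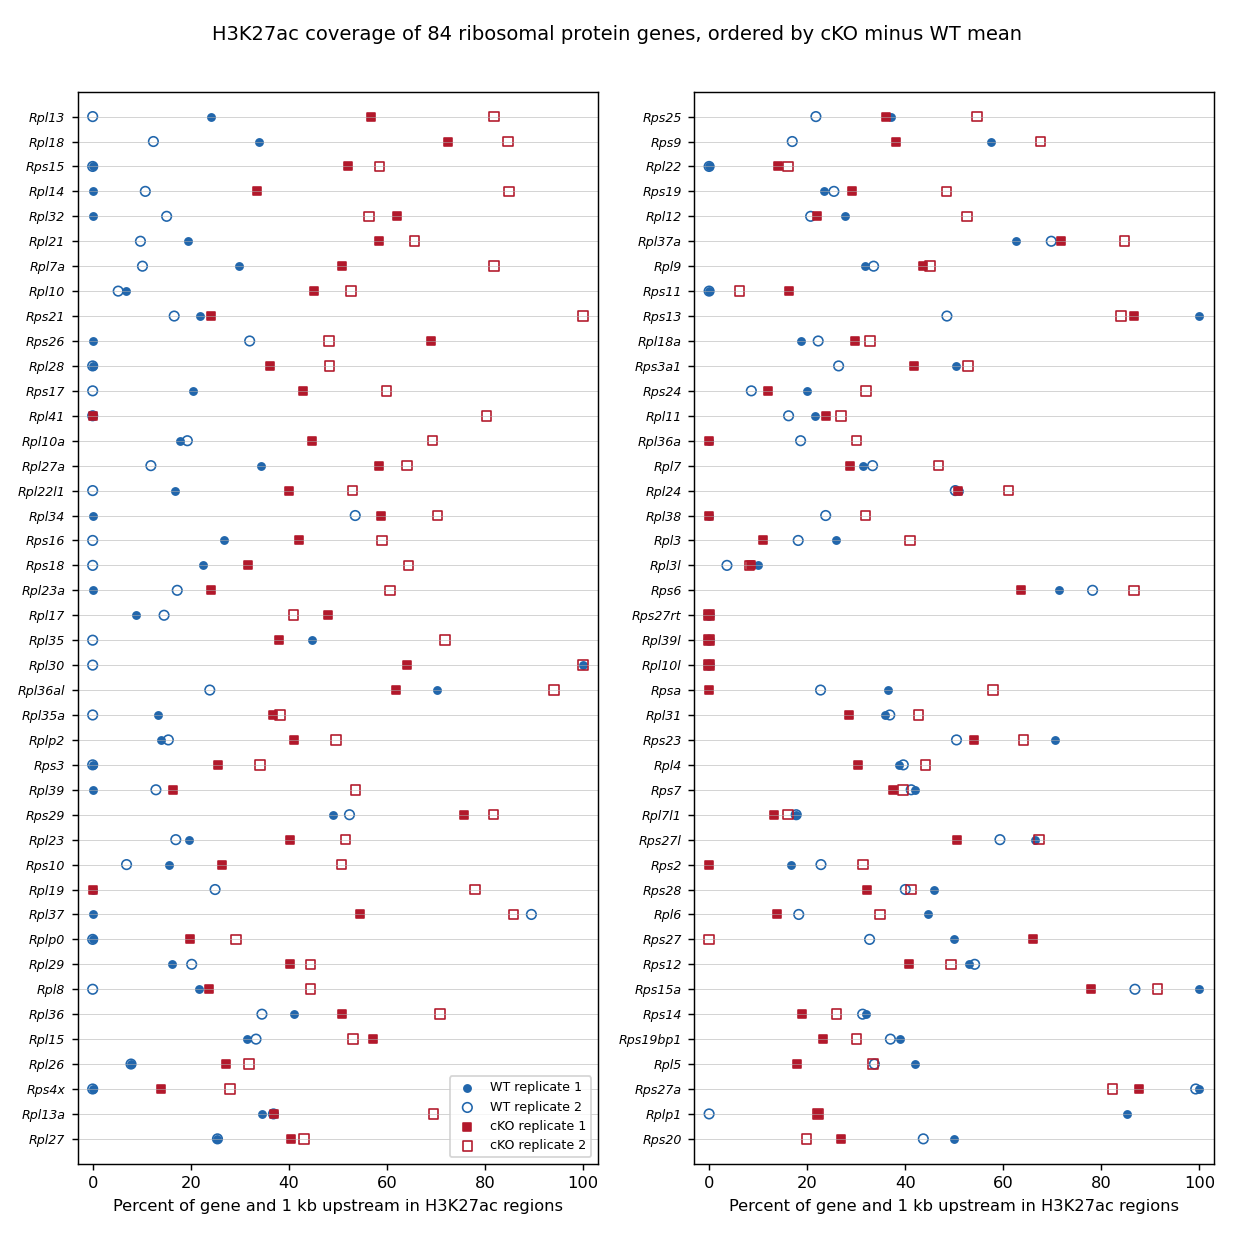
Percent of the window (gene and 1 kb upstream) inside H3K27ac regions for 84 members, in each of 2 WT (circles) and 2 cKO (squares) libraries, ordered by the difference of the means. At 43 of them both squares lie to the right of both circles, and at 8 both lie to the left.

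Of the 43, 30 were large subunit genes. Of all 47 large subunit genes, 30 were covered more in cKO and 1, Rpl5, less. Of 31 small subunit genes, 12 were covered more and 6 less, among them Rps7, Rps12, Rps14, Rps20 and Rps27a. The shares covered more and less were 63.8 and 2.13% for the large and 38.7 and 19.4% for the small subunit. They were 18.1 and 38.5% over all genes tested, and 35.9 and 14.7% over genes of the members' length. By the whole window the small subunit genes thus lay near genes of their length, and the large subunit genes carried most of the members' excess. In WT the median window was covered to 21.5 and 17.2% in large subunit genes and to 36.5 and 25.5% in small subunit genes. In cKO the medians were 36.9 and 52.6% for the large and 37.6 and 50.7% for the small subunit. The difference between the subunits was not tested.

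The widest differences were as follows. Rpl18, in the large subunit, had 2169 and 790 bp of its 6380 bp window covered in WT and 4629 and 5406 bp in cKO, though Sphk2 shares the window. Rpl21 had 1002 and 501 bp in WT and 2999 and 3374 bp in cKO, of 5143 bp. Rpl14 had 0 and 452 bp in WT and 1411 and 3575 bp in cKO, of 4211 bp. In each of these genes the lower cKO library lay well clear of the higher WT library, and in Rpl14 the cKO libraries also lay far from each other. Rpl13 had 938 and 0 bp in WT and 2211 and 3187 bp in cKO. Rpl32 had 0 and 640 bp in WT and 2634 and 2393 bp in cKO. Rps3, a small subunit protein that also acts in DNA repair, had no H3K27ac region in WT and 1746 and 2335 bp in cKO, and its window holds no other protein-coding gene. Over the 43 members the difference of means ran from 346 to 3538 bp, with a median of 1371 bp.

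The opposite direction was found at few members. Most of them were widely acetylated in WT, and a call of less itself requires regions in both WT libraries. At Rps14, Rps20 and Rpl5 the start site itself was covered in both cKO and neither WT libraries. Their lower coverage thus lay elsewhere in the window. Rps14 had 10380 and 10159 bp in WT and 6116 and 8425 bp in cKO, in the window shared with Ndst1. Rps20 had 2660 and 2329 bp in WT and 1435 and 1061 bp in cKO. Rps27a, which encodes ubiquitin fused to a ribosomal protein, was covered over 3264 and 3239 of 3264 bp in WT and 2863 and 2684 bp in cKO. Its window was thus nearly full in all 4 libraries. Rpl5, a partner of the 5S ribosomal RNA that can bind Mdm2, had 3999 and 3204 bp in WT and 1700 and 3176 bp in cKO, so that its nearest libraries were 28 bp apart. Rps19bp1 had 1830 and 1738 bp in WT and 1089 and 1411 bp in cKO.

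Of the members chosen for their roles, the stalk proteins, which recruit translation factors to the ribosome, went different ways. Rplp0 had no H3K27ac in WT and 1041 and 1539 bp in cKO, and Rplp2 had 731 and 805 bp in WT and 2137 and 2587 bp in cKO. Rplp1 had 1926 and 0 bp in WT and 501 and 501 bp in cKO, and its WT libraries bracketed the cKO libraries. Rpl11, which binds the 5S RNA with Rpl5, had 5631 and 4240 bp in WT and 6212 and 7030 bp in cKO. Rps19, mutated in Diamond-Blackfan anaemia, had 1503 and 1638 bp in WT and 1881 and 3117 bp in cKO. Rpl13a, part of a complex that silences inflammatory mRNAs in myeloid cells, had 1451 and 1550 bp in WT and 1551 and 2923 bp in cKO, a gap of 1 bp between the nearest libraries. At Rps6, the substrate of S6 kinase, the libraries overlapped with 2680 and 2935 bp in WT and 2385 and 3250 bp in cKO. They overlapped also at Rpl3, Rpl4 and Rpsa.

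The paralogs were mixed. Rpl10l and Rpl39l, which are expressed chiefly in the testis, and Rps27rt, a copy without introns whose window overlaps Osbpl10, had no region in any of the 10 lists. Rpl3l, the form of Rpl3 found in muscle, had H3K27ac over 931 and 339 bp in WT and 800 and 767 bp in cKO, with no H3.3-HA and no H3K36me3. Rpl22l1 had 501 and 0 bp of H3K27ac in WT and 1199 and 1583 bp in cKO. Rps27l, a p53 target, had overlapping values of 2942 and 2628 bp in WT and 2240 and 2983 bp in cKO. Rpl7l1 had 1726 and 1735 bp in WT and 1284 and 1566 bp in cKO. Ribosomal protein genes have many processed pseudogenes, and how far reads shared with such copies affected the calls was not tested.

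The H3K27ac difference was concentrated around the start site. In WT, 20 of 86 start sites lay in an H3K27ac region in each replicate, and in cKO 65 and 78 did. In both cKO and neither WT libraries, 42 of 80 members with a covered start (52.5%) lay in a region, and in both WT and neither cKO 0 did. Over all 8377 protein-coding genes with a covered start these shares were 31.3 and 3.10%. Among genes with H3K36me3 in both WT libraries, 39 of 74 members (52.7%) gained a covered start in this sense, with 31.7% of all such genes and 37.2% of those of the members' length. Of the 42, 28 were large subunit, 13 small subunit and 1 a paralog.

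Many WT regions lay just downstream of the start. Of the 66 starts outside a region in WT replicate 1, 39 had one within 1 kb, 29 of them downstream, at a median distance of 234 bp. In WT replicate 2 it was 35 of 66, 31 of them downstream, at 291 bp. The share of members covered was highest 600 bp past the start in both WT libraries, at 48.8 and 51.2%, and at 500 and 100 bp past it in cKO, at 79.1 and 93.0%. Where a region covered the start in cKO it reached 452 and 705 bp upstream and 1099 and 1443 bp downstream at the median. The 1 kb upstream of the start was covered to 24.9 and 16.2% in WT and 42.3 and 62.5% in cKO, the first 1 kb of the transcript to 42.9 and 43.1% in WT and 72.6 and 87.7% in cKO. The rest of the transcript, at 26.4 and 20.4% in WT and 17.7 and 33.0% in cKO, overlapped between the genotypes. The members without a covered start in either cKO library were Rpl10l, Rpl17, Rpl36a, Rpl39l, Rpl3l and Rps27rt.

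**Figure D3:**
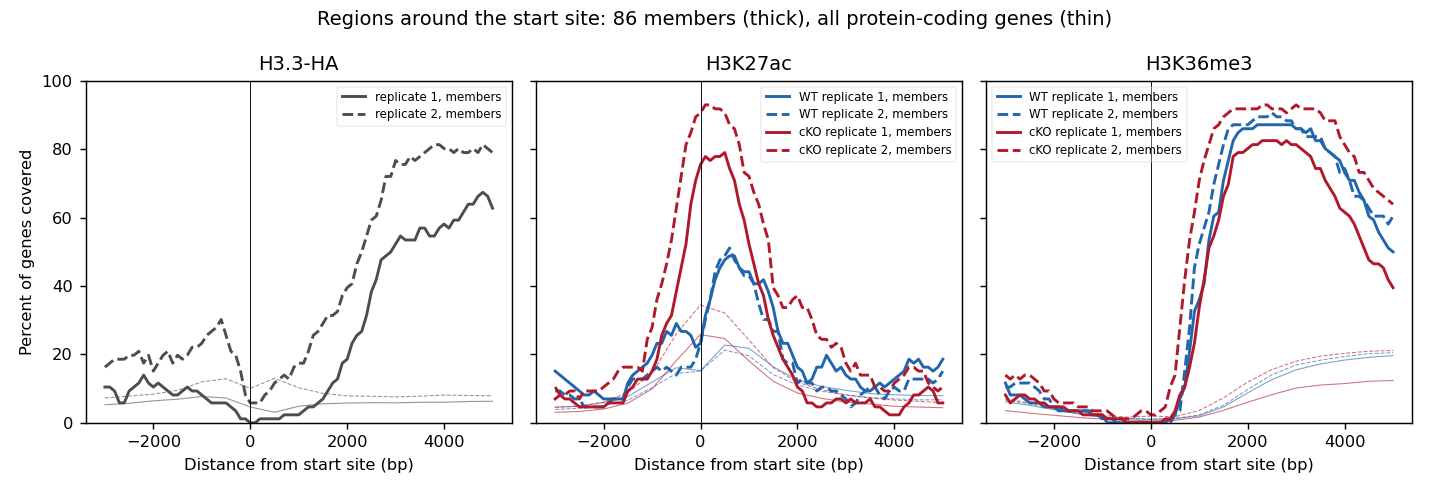
Percent of genes inside a region (y axis) against distance from the start site in bp (x axis, positive into the gene), with 1 line per library, thick for the 86 members and thin for all protein-coding genes. WT H3K27ac dips at the start and is highest 600 bp into the gene, cKO H3K27ac is highest at 500 and 100 bp, and H3.3-HA and H3K36me3 begin further into the gene.

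Other lists of genes of protein synthesis and energy supply were set beside all protein-coding genes, of which 31.3% gained a covered start in this sense. The start was covered in both cKO and neither WT libraries in 25 of 70 mitochondrial ribosomal protein genes (35.7%) and 22 of 46 translation factors (47.8%). It was so in 23 of 72 genes of oxidative phosphorylation (31.9%), about the share of all genes, and in 12 of 31 ribosome biogenesis genes (38.7%). By the whole window, 18.1% of all genes tested were covered more in cKO and 38.5% less. Of 77 mitochondrial ribosomal protein genes, 27 were covered more and 11 less. Translation factors had 12 more and 17 less of 50, oxidative phosphorylation 19 and 20 of 79, and ribosome biogenesis 8 and 5 of 34. The lists' median window was longer than that of the members, at 8899, 16352, 8370 and 13752 bp in that order. Of the ribosomal genes outside the symbol rule, Fau was covered more in cKO (798 and 501 bp in WT, 1704 and 2681 bp in cKO), and Rack1 (6188 and 5364 bp against 3662 and 4006 bp) less.

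**Figure D4:**
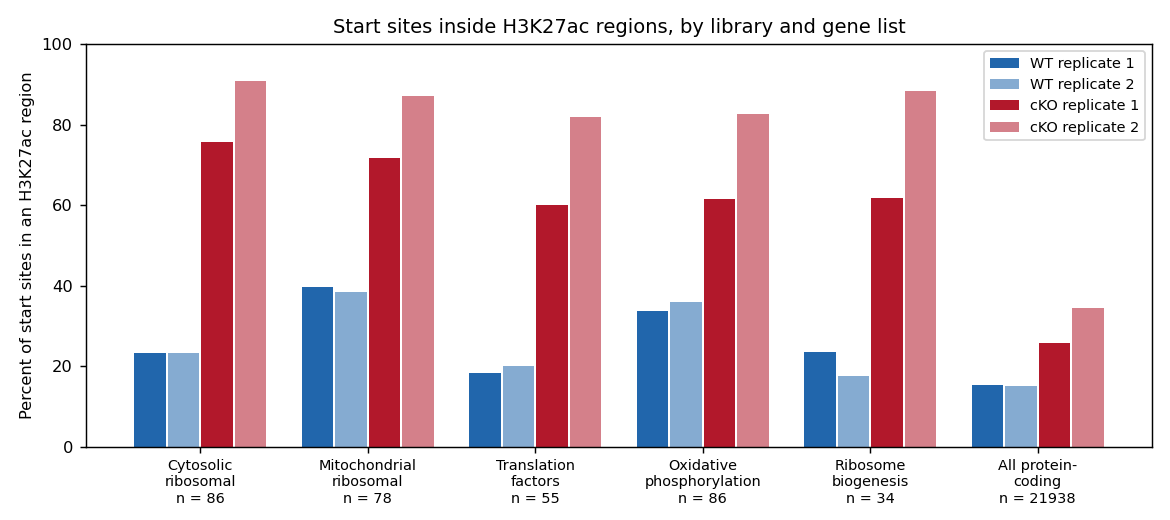
Percent of start sites inside an H3K27ac region (y axis, from 0) in each WT and cKO library, for the 86 members, 4 other gene lists and all protein-coding genes. In each list both cKO bars stand above both WT bars, and the members go from 23.3% in both WT libraries to 75.6 and 90.7% in cKO.

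H3K36me3 covered the bodies of the members almost throughout and in both genotypes. A region was present in both libraries at 76 members in WT and at 76 in cKO. Past the first 1 kb, 81.4 and 85.4% of the transcript was covered in WT and 77.7 and 91.2% in cKO, and 1 kb beyond the end 77.8 and 81.1% in WT and 75.4 and 90.7% in cKO. The first 1 kb was covered to 8.87 and 12.4% in WT and 8.02 and 26.0% in cKO. No start site was covered in WT or in cKO replicate 1, and 2 were in cKO replicate 2.

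The cKO H3K36me3 replicate 1 list, although it covered 90.7 Mb against 163 Mb or more in the other 3, kept most of the members. Their summed coverage was 190 and 202 kb in WT and 181 and 231 kb in cKO, while over all protein-coding genes it was 160831 and 168158 kb in WT and 89665 and 159981 kb in cKO. Of 81 members with a region, 27 (33.3%) were covered more in both cKO than in both WT libraries, 11 (13.6%) less, and 43 overlapped. Over all 11285 genes tested 8.29% were covered more and 38.1% less, and over 1617 genes of the members' length 16.8 and 22.9%. These counts turned on the replicate: without cKO replicate 1, 54 members were covered more and 11 less (40.9 and 38.4% over all genes), and without cKO replicate 2, 27 more and 38 less (9.14 and 77.4%). The members' higher share also went with the settings used: with a gap of at least 500 bp between genotypes, 6.17% of the members were covered more against 5.3% of all genes. With lists of equal covered length the shares were 5.19 and 13.9%. Those lists kept regions of at least 6703 and 7514 bp in WT and 8212 bp in cKO replicate 2, longer than most member genes. The cKO replicate 1 list was kept whole, from 501 bp. Few members could then be called, so the equal lists cannot compare them with all genes. The median difference over the members was 0.47 points, well under the 12.9 points between the medians of the 2 cKO libraries.

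**Figure D5:**
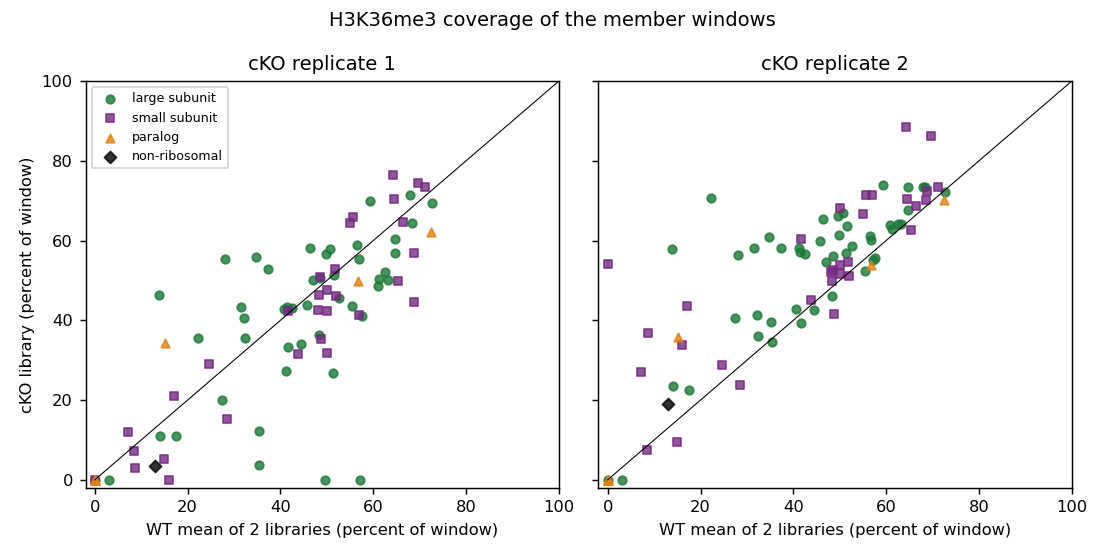
Percent of each member's window inside H3K36me3 regions in cKO replicate 1 (left) and replicate 2 (right) against the mean of the 2 WT libraries, with the line of equality. In replicate 1, 32 members lie above the line and 48 below it, and in replicate 2, 64 lie above and 17 below.

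In the other lists fewer genes were covered more in cKO than less, as over all genes tested (8.29% more and 38.1% less). Of 73 mitochondrial ribosomal protein genes with H3K36me3, 3 (4.11%) were covered more in cKO and 30 (41.1%) less. The counts were 5 and 27 of 79 oxidative phosphorylation genes (6.33 and 34.2%) and 2 and 13 of 33 ribosome biogenesis genes (6.06 and 39.4%). For 51 translation factors they were 8 and 16 (15.7 and 31.4%). In cKO replicate 1 the median mitochondrial ribosomal protein gene had 12.5% of its window covered, against 35.8 and 35.3% in WT, and the median member had 43.4%, against 45.8 and 48.7%. The members and these lists share the same libraries, and the difference between lists was not tested.

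The differences of mean H3K36me3 coverage ran from 88 to 1963 bp over the 27 members covered more in cKO and from 191.5 to 1492 bp over the 11 covered less. Rpl18 had 1584 and 1266 bp covered in WT and 2274 and 4502 bp in cKO. Rps3 had 4253 and 4551 bp in WT and 5223 and 6062 bp in cKO. Rps15a had 9141 and 8698 bp in WT and 9532 and 11047 bp in cKO, Rpl10 820 and 1048 bp against 1840 and 1876 bp, and Rpl10a 1261 and 1209 bp against 1994 and 2169 bp. At Rpl10 and Rpl10a the cKO libraries were close to each other and clear of WT. Rpl12 had 1328 and 0 bp in WT and 2217 and 2776 bp in cKO, so its WT libraries differed by more than the gap to cKO. Among those covered less in cKO were Rpl35 (2853 and 2916 bp in WT, 0 and 2785 bp in cKO), Rpl7l1 (7158 and 7006 bp against 6079 and 6855 bp), Rpl19 (2740 and 2770 bp against 1966 and 2661 bp), Rps14 (2501 and 2971 bp against 2309 and 2424 bp) and Rplp1 (809 and 786 bp against 86 and 780 bp). In Rpl35, Rpl19 and Rplp1, cKO replicate 1 carried most of the difference. Both marks were covered more in cKO at 18 members, among them Rpl18, Rps3, Rpl10, Rpl10a, Rpl13a, Rps19 and Rpl22l1. Another 3 members, Rpl14, Rpl28 and Rpl29, had more H3K27ac and less H3K36me3. The share of all genes called for both marks was not counted, so these counts are not read as a link between the marks.

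The marks met inside the short genes. Of the H3K27ac covered length in the members' windows, 37.1 and 36.01% also lay in H3K36me3 regions of the same-numbered WT library, and 20.9 and 41.5% in cKO, where the replicates spanned the WT values. Of the 30 members that host snoRNAs, 16 were covered more by H3K27ac in cKO and 4 less, and of the 56 without, 27 and 5. For H3K36me3 the counts were 11 and 1 with snoRNAs, and 16 and 10 without.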

How the data were processed

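CUT&RUN of H3.3-HA, H3K27ac and H3K36me3 in BMDMs was used as deposited. The authors trimmed reads with cutadapt, aligned them to mm10 with Bowtie2 and called regions with HOMER in histone mode, each library on its own. Per the file headers, peaks were 500 bp wide and at least 1000 bp apart. They had to exceed IgG 4-fold, with a Poisson p-value of 1e-04 against IgG as well as against 10000 bp of local background, before joining into longer regions. Starts and ends of regions are deposited, and the deposited score is 1 in each row, so no height was available.

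Group and replicate came from the labels, which call the replicates biological. The bases of each gene body plus 1 kb upstream inside regions were counted per library for 21938 protein-coding genes of GENCODE M21, with a principal transcript per gene for the start site, the transcript end and the exons. A gene was tested when at least 1 of the 4 libraries of a mark had a region in the window. It was counted as covered more or less when both cKO libraries lay above or below both WT libraries. Members are not replicates, so no p-value over members is given. Members named were the 6 with the largest difference of mean covered bp per mark and direction, the 3 with the most H3.3-HA, those without any region, members fixed by role and the paralogs. Values of a few genes are not reported here. Other names were chosen after their values were seen. The members and lists were chosen with earlier results of these data known. Python 3.11.15, numpy 2.4.6, pandas 2.3.3 and pysam 0.24.0 were used, and the counting was tested on simulated regions. Sequences came from RefSeq GRCm38.p6, and sequences of chromosome 18 are not shown. Alternatives were another region width, window, list length, gap and start site, the replicate block, and leaving out each library. Depth was 5365319 to 29988098 tags, and a region missed in a shallow library can still carry signal.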

Additional observations from a re-analysis of the deposited data

How the results depend on the processing

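The count of members covered more by H3K27ac in cKO kept within 1.5 times of 43 under each alternative except the presence of a region in place of its length, which gave 7. It was 38 with regions of at least 1 kb (46.3% of members tested, 19.6% of all genes), 52 with lists cut to equal covered length (63.4 and 37.5%) and 30 with a gap of at least 500 bp between genotypes (36.1 and 11.4%). By presence the shares were 8.43 and 3.95%. The count covered less was 3 in the 1 kb on both sides of the start, 2 with the gap and 0 by presence, and 10 to 20 when 1 library was left out (16 without WT replicate 2, 20 without cKO replicate 2). These were 3.66, 2.41, 0 and 12 to 24.1% of the members tested. Over all genes tested the shares were 13, 30.8, 3.64 and 40.2 to 54.8%, in the same order. The median H3K27ac difference was 31.6 points with equal lists, which dropped more narrow regions from WT than from cKO. It was 38.4 in the 1 kb on both sides of the start and 9.505 to 24.7 when 1 library was left out. The 42 start sites covered in both cKO and neither WT libraries became 38 to 54 under alternatives chosen after seeing the data. Counted only among the 59 members alone in their window, they were 28. The share of all genes was not counted under these alternatives.

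For H3K36me3, members covered more in cKO numbered 4 with equal lists (5.19% against 13.9% of all genes), 5 with the gap (6.17 against 5.3%), 0 by presence (0 against 1.38%), so that the members' share there was below or close to that of all genes, and 27 to 54 when 1 library was left out, with 54 reached without cKO replicate 1. Over all genes 9.14 to 40.9% were covered more with 1 library left out. Members covered less numbered 2 with equal lists, 0 with the gap, 0 by presence and 11 to 38 with 1 library left out, with 38 without cKO replicate 2 and 22 without WT replicate 1. These were 2.6, 0, 0 and 13.6 to 46.9% of the members tested, and 17.2, 29.7, 3.23 and 38.4 to 77.4% of all genes tested. Lists of equal length keep the widest regions, which for H3K36me3 means at least 6703 and 7514 bp in WT and 8212 bp in cKO replicate 2. These are longer than most member genes, while the cKO replicate 1 list was kept whole, from 501 bp. Few members could thus be called either way with equal lists. The median difference was 21.1 points with equal lists, where only the cKO replicate 1 list was uncut, so that value is not read as a gain in cKO. It ran from -1.997 to 4.56 when 1 library was left out, and it was negative without cKO replicate 2. For H3.3-HA, 10 members had a region within 1 kb of the start in both replicates, and the share of all genes was not counted for this setting.

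Replicate numbers match between genotypes, but nothing ties same-numbered libraries together, and the replicate differences of WT and cKO correlated at -0.06 over genes for H3K27ac and 0.09 for H3K36me3. With a replicate block, 43 members were covered more and 9 less for H3K27ac, and 32 and 16 for H3K36me3. The H3.3-HA libraries were the shallowest, with 6951296 and 5365319 tags, and the shallower replicate 2 covered more of the genome, 62.8 against 56.2 Mb. The part of depth in the calls was not tested.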
